A study of Mus musculus with 167 samples.

Results

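Ces3b, Sult5a1, Odc1, Sepsecs and Fam126a are 5 of the 39179 genes in the liver tables of a series of mice with an expanded CAG repeat in Htt, the gene of Huntington's disease. They were selected on measured values, because each showed lower levels with longer repeats at 10 months. The 10-month slope and the 10-month differences between lines are therefore given as a description, and a count of calls in that slope restates the choice and supports nothing. Tests were made at 2 and 6 months, in libraries that the choice did not use, in the wild type and between the sexes.

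PolyA RNA was sequenced from livers of C57BL/6 mice. The 6 knock-in lines Q20, Q80, Q92, Q111, Q140 and Q175 are named by their repeat length. All knock-in animals were heterozygous, so each kept 1 wild-type Htt allele, and the wild-type mice shared cages with Q20 mice, while the knock-in mice were housed with their own line. Differences between the knock-in lines therefore cannot be told apart from housing at any age. Livers were collected at 2, 6 and 10 months from both sexes. This made 21 groups of genotype and age, 20 of them with 8 libraries and 1, Q80 at 10 months, with 7. A knock-in allele is carried in all tissues, so a liver value cannot be assigned to the liver's own allele. In whole liver, fewer cells of a type and less RNA per cell cannot be told apart.

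The products of these genes act in separate branches of metabolism. Carboxylesterases of the hepatocyte endoplasmic reticulum, such as Ces3b, cut ester bonds in lipids and foreign compounds. Cytosolic sulfotransferases, the family of Sult5a1, add sulfate to small molecules, a step of conjugation in which the liver is rich. Ornithine decarboxylase, made from Odc1, turns ornithine into putrescine and limits the rate of polyamine synthesis. Sepsecs makes selenocysteine on its own transfer RNA, the last step before the amino acid enters selenoproteins. Fam126a encodes hyccin, a subunit of the complex that holds phosphatidylinositol 4-kinase alpha at the plasma membrane.

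The promoters of these genes are of different kinds, and 3 are printed because they show this range from a TATA-containing promoter to a GC-rich one. RefSeq's promoter table (GRCm38.p6) held 4 of the 5 genes, without Sepsecs. Each stretch starts 250 bases before the RefSeq start and ends where the GENCODE M21 gene begins, and capitals mark letters that match a searched motif. The Ces3b stretch is the plus strand of chr8:105083505-105083752, that of Sult5a1 the minus strand of chr8:123158316-123158530, and that of Odc1 the plus strand of chr12:17544623-17544793.
Ces3b: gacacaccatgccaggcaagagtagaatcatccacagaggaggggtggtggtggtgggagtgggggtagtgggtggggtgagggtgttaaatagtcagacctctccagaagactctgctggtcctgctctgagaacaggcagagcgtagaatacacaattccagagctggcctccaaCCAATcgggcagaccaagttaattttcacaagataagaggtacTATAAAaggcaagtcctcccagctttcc
Sult5a1: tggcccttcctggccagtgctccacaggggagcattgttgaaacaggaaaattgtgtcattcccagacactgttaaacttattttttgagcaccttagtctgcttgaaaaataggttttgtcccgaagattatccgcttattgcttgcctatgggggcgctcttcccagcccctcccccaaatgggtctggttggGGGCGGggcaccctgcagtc
Odc1: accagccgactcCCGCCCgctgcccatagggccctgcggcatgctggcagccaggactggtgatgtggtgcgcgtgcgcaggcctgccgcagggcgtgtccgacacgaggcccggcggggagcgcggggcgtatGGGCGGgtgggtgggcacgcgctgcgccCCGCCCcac

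The motifs were searched on both strands. The TATA box was searched as TATAAA, and the CCAAT box by those letters. The GC box was GGGCGG and the E-box was CACGTG. An HNF4A site was searched as CAAAGTCCA. The C/EBP palindrome was TTGCGCAA, and the cAMP response element was TGACGTCA. No searched motif contains another. In the 250 bases, Ces3b had a TATA box at −30 and a CCAAT box at −73, counted from the start. Sult5a1 had 1 GC box, at −55. Odc1 had GC boxes at −238, −116, −88 and −15 and a GC content of 80.0%. Fam126a, whose window lies inside the GENCODE gene and is not printed, had a GC box at −49 and a GC content of 74.4%. Among 27025 promoters of this length, the TATA box was in 12.97%, the CCAAT box in 34.5% and the GC box in 32.9%, and the median GC content was 52.0%. The E-box, HNF4A, C/EBP and cAMP letters were in 6.05%, 0.381%, 0.1702% and 1.62% of them and in none of these 4.

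Per length of transcript, the levels of the 5 genes differed widely. Over all libraries the median was 177 FPKM for Ces3b, 21.03 FPKM for Odc1, 14.1 FPKM for Sepsecs, 9.68 FPKM for Sult5a1 and 2.38 FPKM for Fam126a. All further levels are normalised counts (CPM, scaled to the same library size), which do not compare genes with each other. Totals per library ran from 32025244 to 57151736 expected counts, and the lowest single values were 80 counts of Sult5a1 and 171 of Fam126a. All 5 genes passed the filter on low counts in each of the 15 comparisons.

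Some libraries need naming before the results. The hepatocyte markers (8 of 8 genes, Alb among them) summed to between 84796 and 144552 CPM in the 47 libraries of the other genotypes at 10 months and to between 93403 and 110652 CPM in the 8 of Q175. Skeletal muscle markers (10 genes) summed to between 0.31 and 1.57 CPM in those 47 libraries and to between 0.50 and 1055 CPM in Q175, where the female F3 had 271 CPM of the muscle actin gene Acta1 and F4 had 7.82 CPM. Between 0 and 9 of the 10 muscle genes were at 0 in a Q175 library, and between 2 and 8 in the others. In Q175 the red cell markers (6 genes) reached 8035 CPM, in the male M4, against 603 CPM at most elsewhere. Bile duct markers (7 genes) peaked at 216 CPM in another genotype and at 79.1 CPM in Q175, and Kupffer cell markers (11 genes) lay between 389 and 821 CPM in Q175 and between 230 and 863 CPM elsewhere. At 6 months the Kupffer cell markers summed to 1082, 1068 and 1277 CPM in the Q20 females F1, F3 and F4, with 706 CPM in F2, between 399.6 and 505 CPM in the Q20 males, and at most 813 CPM in the other groups of that age. None of the 11 genes was at 0 in any library of that age. At 2 months 55 of 56 libraries matched the labelled sex, and the exception was the library labelled Q80 male M5. At 6 months the wild-type libraries carry another form of library code than the knock-in libraries, so that code and genotype cannot be told apart between them at that age. Among the knock-in libraries of 6 months, each line has its own run of library numbers. Q175 and Q20 share no ending of the code. Line and library set therefore cannot be told apart in the 6-month comparisons between lines.

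Fold changes below are log2 values with their standard error (SE) from edgeR's quasi-likelihood model, and a slope is the log2 change per 100 CAG repeats over the 6 knock-in lines with sex in the model. A gene is called when its p, adjusted by Benjamini and Hochberg over all genes tested, is under 0.05. In the 10-month slope, the contrast that chose these genes, 14 genes of 15629 (0.0896%) were called lower. By the choice itself 4 of the 5 were among them, and Odc1 was not, so nothing is read from this count. Without the Q20 male M3 or without the Q175 female F3 it was 0 of the 5, and without any other 1 of the 16 Q20 and Q175 libraries it lay between 1 and 4. The 3 falling genes with the smallest p outside the selection, at a mean log2 CPM of at least 1, were Htt itself (−0.42 ± 0.05), Moxd1 (−2.28 ± 0.51) and Gm28043 (−0.22 ± 0.05). A slope fitted through the lines does not say at which length a gene was low, so the levels follow line by line.

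**Figure D1:**
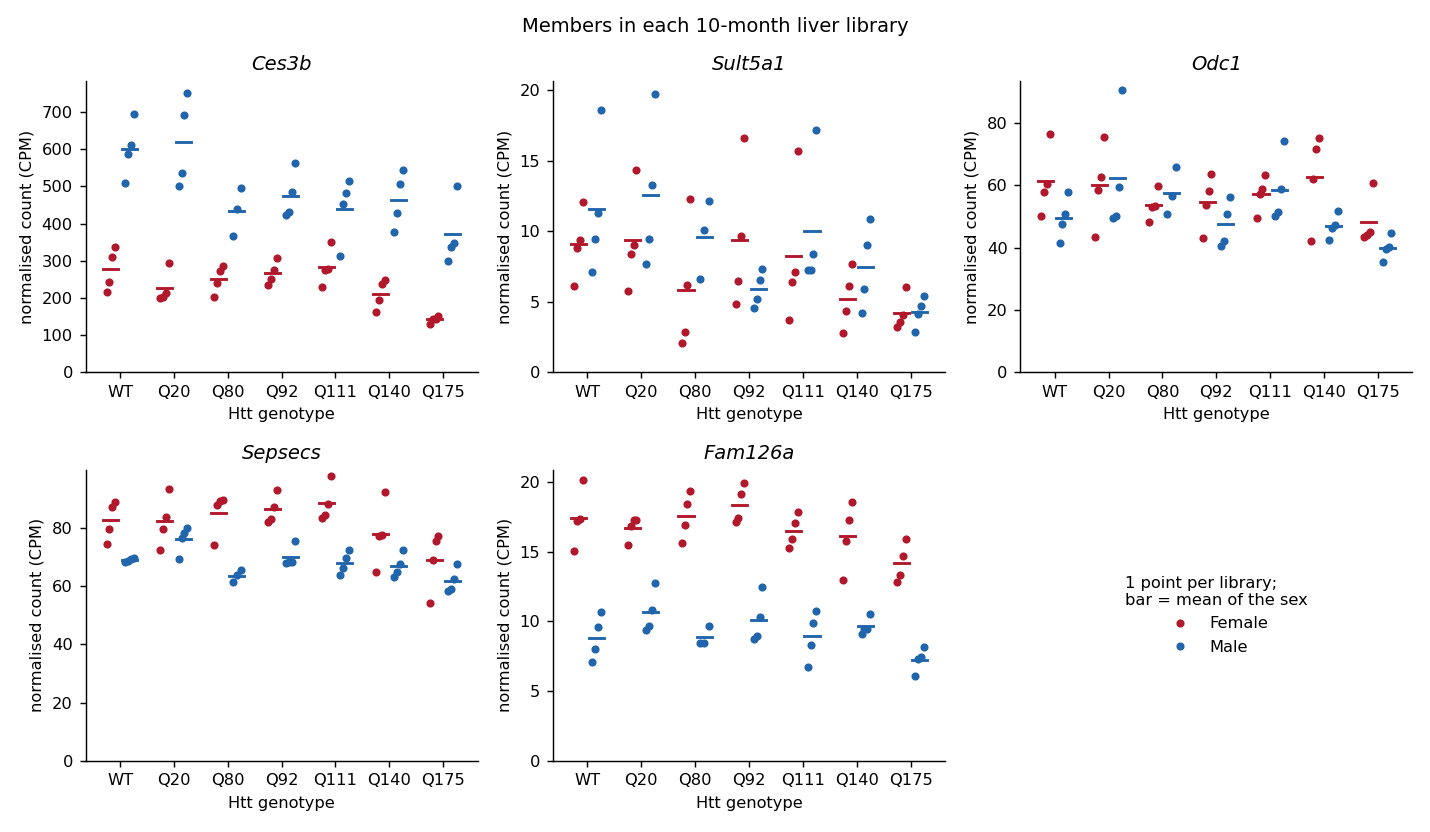
Normalised counts (CPM, linear axis from 0) of the 5 genes in every 10-month library, by genotype from the wild type (WT) to Q175; red points are females, blue points males, and each horizontal bar is the mean of a sex. The Q175 females lie at 129.6 to 150.9 CPM of Ces3b, below the other females of that age, and the Q175 libraries of Sult5a1 lie between 2.84 and 6.05 CPM. These are libraries that chose the genes.

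Ces3b (ENSMUSG00000062181, GRCm38 chromosome 8, 105083753 to 105093929, plus strand) had its lowest 10-month levels in Q175 females. The 4 Q175 females had between 129.6 and 150.9 CPM with a median of 144 CPM. The other 24 females at this age had between 162 CPM, in a Q140 library, and 351 CPM, so the ranges did not overlap. This gap and the other 10-month gaps below rest on libraries that chose the genes. The share of all genes with such a gap was not counted. Of the Q175 females, F3 and F4, the libraries with muscle RNA, had 144.3 and 150.9 CPM. Females of Q20 lay between 199.7 and 293 CPM and wild-type females between 215 and 337 CPM.

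Males had higher levels. Ces3b in the 4 Q175 males ran from 299 to 499.8 CPM with a median of 343 CPM, and 12 of the 23 other males had less than the highest of them. Q20 males ran from 499.7 to 752 CPM and wild-type males from 508 to 695 CPM, so that the Q175 and Q20 males met only at about the same value, while every wild-type male stood above the Q175 males. In the lines between, the means of the 4 females were 249.9 ± 36.4 CPM (SD) in Q80, 267 ± 30.7 CPM in Q92, 282 ± 50.8 CPM in Q111 and 210.4 ± 40.2 CPM in Q140. The means of their males were 434 ± 64.2 CPM (n = 3), 475 ± 64.7 CPM, 439.99 ± 88.0 CPM and 463 ± 75.6 CPM (n = 4 each). These lay between Q175 and Q20 in males, while in females only Q140 was below the Q20 mean of 227 ± 44.4 CPM.

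Against Q20, Ces3b differed by −0.71 ± 0.14 in Q175 and by −0.28 ± 0.13 in Q140. The differences were −0.08 ± 0.14 in Q111, −0.08 ± 0.13 in Q92 and −0.18 ± 0.14 in Q80, each under 1.5 times its SE. Set against the wild type, Q175 differed by −0.82 ± 0.14 and Q140 by −0.39 ± 0.13. The 10-month slope was −0.41 ± 0.09, and it was −0.19 ± 0.11 without the Q175 libraries.

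At the earlier ages the Ces3b groups overlapped. At 6 months the lowest, median and highest levels were 209, 320.3 and 639 CPM in Q20, 219, 387 and 499 CPM in Q80, 232, 383 and 608 CPM in Q92, 243, 359.9 and 674 CPM in Q111, 134, 301 and 655 CPM in Q140, 243, 371 and 474 CPM in Q175 and 271, 383 and 635 CPM in the wild type. All of these ranges overlapped. The lowest mean of 4 females at 6 months was that of Q140, at 181 ± 55.4 CPM, against 290.1 ± 46.7 CPM in Q175. At 2 months the female means lay between 289 ± 47.0 CPM, in Q175, and 349 ± 47.1 CPM, in Q92, and the male means between 509 ± 61.1 CPM, in Q20, and 584 ± 86.9 CPM, in Q175.

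Sult5a1 (ENSMUSG00000000739, chromosome 8, 123140192 to 123158315, minus strand) had the steepest 10-month slope of the 5 genes, −0.77 ± 0.19. The 8 Q175 libraries ran from 2.84 to 6.05 CPM with a median of 4.07 CPM. In Q20 the range was 5.73 to 19.8 CPM with a median of 9.21 CPM, and in the wild type 6.13 to 18.6 CPM with a median of 9.39 CPM. All 8 Q175 libraries were thus under the lowest wild-type library, and they overlapped with the lower end of Q20.

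Low levels of Sult5a1 were not found in Q175 alone. The lowest library of this age, at 2.04 CPM, was a Q80 female, and 7 of the 24 other females and 3 of the 23 other males had less than the highest Q175 library of their sex. Q140 ran from 2.78 to 10.9 CPM with a median of 5.99 CPM, Q92 from 4.52 to 16.6 CPM with 6.48 CPM, Q80 from 2.04 to 12.3 CPM with 6.57 CPM and Q111 from 3.67 to 17.2 CPM with 7.25 CPM. The difference from Q20 was −1.35 ± 0.31 in Q175 and −0.79 ± 0.30 in Q140. It was −0.55 ± 0.31 in Q80, −0.48 ± 0.30 in Q92 and −0.25 ± 0.30 in Q111. Against the wild type Q175 differed by −1.27 ± 0.31.

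This gene also had the largest SE of the 5 in each comparison. At 2 months Sult5a1 ran from 4.72 to 26.4 CPM in Q80, from 5.08 to 23.2 CPM in Q175 and from 7.18 to 26.3 CPM in the wild type. Its medians at that age lay between 10.9 CPM in the wild type and 14.3 CPM in Q92. At 6 months the medians were 8.76 CPM in Q20, 13.1 CPM in Q80, 11.6 CPM in Q92, 10.9 CPM in Q111, 6.64 CPM in Q140, 8.88 CPM in Q175 and 14.4 CPM in the wild type, and the ranges of all groups overlapped.

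Odc1 (ENSMUSG00000011179, chromosome 12, 17544794 to 17551505, plus strand) was low in Q175 males at 10 months, with 4 of the other 23 males under the highest of them. The 4 Q175 males lay between 35.3 and 44.6 CPM, under the Q20 males at 49.6 to 90.8 CPM, and overlapped with the wild-type males at 41.4 to 58.1 CPM. Among females the Q175 range, 43.3 to 60.7 CPM, lay within the range of the others, 42.1 to 76.7 CPM. The upper end of that Q175 range was 1 library, F2, and the next had 44.9 CPM.

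Over both sexes the median of Odc1 was 43.7 CPM in Q175, 49.5 CPM in Q140, 58.0 CPM in Q111, 52.3 CPM in Q92, 53.6 CPM in Q80, 59.1 CPM in Q20 and 54.3 CPM in the wild type. Q175 differed from Q20 by −0.49 ± 0.12 and from the wild type by −0.33 ± 0.12. The other lines differed from Q20 by between −0.27 ± 0.12, in Q92, and −0.08 ± 0.12, in Q111. The 10-month slope was −0.25 ± 0.08, with −0.10 ± 0.10 in females alone and −0.39 ± 0.10 in males alone. Whether these sexes differed was not tested, since this contrast chose the gene.

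At 6 months both long-repeat lines were on the low side of Odc1. Q140 ran from 35.9 to 52.9 CPM with a median of 46.5 CPM and Q175 from 33.5 to 58.0 CPM with a median of 49.9 CPM. Q20 ran from 48.8 to 69.0 CPM with a median of 55.2 CPM, and the medians of Q80, Q92 and Q111 were 57, 57.5 and 64.1 CPM. The wild type spanned 37.9 to 80.7 CPM, with a median of 52.2 CPM. The 2-month order was another one, with medians of 63.0 CPM in Q80, 61.2 CPM in Q140 and 59.9 CPM in Q175 above those of Q111 (52.9 CPM), Q20 (51.2 CPM), Q92 (49.4 CPM) and the wild type (52.1 CPM).

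Sepsecs (ENSMUSG00000029173, chromosome 5, 52640087 to 52669708, minus strand) lies 17.7 Mb from Htt on the same chromosome. Its 10-month slope was the smallest of the 5 in size, as was its SE. At 10 months Q175 ran from 54.3 to 77.3 CPM with a median of 64.9 CPM, Q20 from 69.4 to 93.2 CPM with a median of 78.9 CPM, and the wild type from 68.1 to 88.9 CPM with a median of 71.9 CPM. In males alone the Q175 libraries, at 58.1 to 67.4 CPM, were all under Q20 and the wild type, whose lowest values were 69.4 and 68.1 CPM. In females the Q175 range of 54.3 to 77.3 CPM overlapped with both.

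Q175 differed from Q20 in Sepsecs by −0.28 ± 0.06 and from the wild type by −0.21 ± 0.06. Q140 differed from Q20 by −0.13 ± 0.06, Q80 by −0.09 ± 0.07, and Q92 and Q111 by −0.02 ± 0.06 and −0.03 ± 0.06. The slope at 10 months was −0.17 ± 0.04. At 6 months the medians from Q20 to Q175 were 74.0, 70.0, 69.7, 68.3, 65.53 and 65.52 CPM. Each step between neighbouring lines was smaller than the SD within either line, with both sexes pooled. Within a sex the SD of a line was smaller, from 2.12 CPM in Q140 males to 6.59 CPM in Q175 females. Steps within a sex were not compared with it. The fitted difference from Q20 was −0.18 ± 0.05 in Q175, −0.13 ± 0.05 in Q140, −0.14 ± 0.05 in Q111, −0.06 ± 0.05 in Q92 and −0.04 ± 0.05 in Q80. The range was 57.9 to 91.0 CPM in Q20 and 53.8 to 84.7 CPM in Q175, and the wild type had a median of 78.6 CPM. At 2 months all medians lay between 71.6 CPM, in Q140, and 77.0 CPM, in Q20.

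Fam126a (ENSMUSG00000028995, chromosome 5, 23915276 to 24030690, minus strand) lies 10.7 Mb from Htt. The 4 Q175 males of 10 months had 6.06 to 8.13 CPM, below the Q20 males at 9.41 to 12.7 CPM, and 3 of the other 23 males were under the highest of them. The 4 Q175 females had 12.8 to 15.9 CPM, and the Q20 females 15.5 to 17.3 CPM. Those female ranges overlapped slightly, as did the wild type in either sex, at 15.0 to 20.2 CPM in females and 7.07 to 10.6 CPM in males.

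The difference of Q175 from Q20 in Fam126a was −0.40 ± 0.09, and from the wild type −0.30 ± 0.09. The other 4 lines differed from Q20 by between −0.13 ± 0.09, in Q111, and 0.03 ± 0.09, in Q92. The slope was −0.23 ± 0.06 at 10 months, and −0.09 ± 0.07 without Q175. At 6 months the female means lay between 13.7 ± 1.22 CPM, in Q111, and 17.1 ± 2.02 CPM, in Q80, with 15.03 ± 1.12 CPM in Q175. The male means lay between 6.34 ± 1.45 CPM, in Q175, and 9.35 ± 1.48 CPM, in Q92. At 2 months the female means ran from 14.9 ± 2.18 CPM, in Q20, to 16.99 ± 2.04 CPM, in Q80, and the male means from 7.70 ± 1.19 CPM, in the wild type, to 10.05 ± 3.602 CPM, in Q80, whose 5 males include M5.

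**Figure D2:**
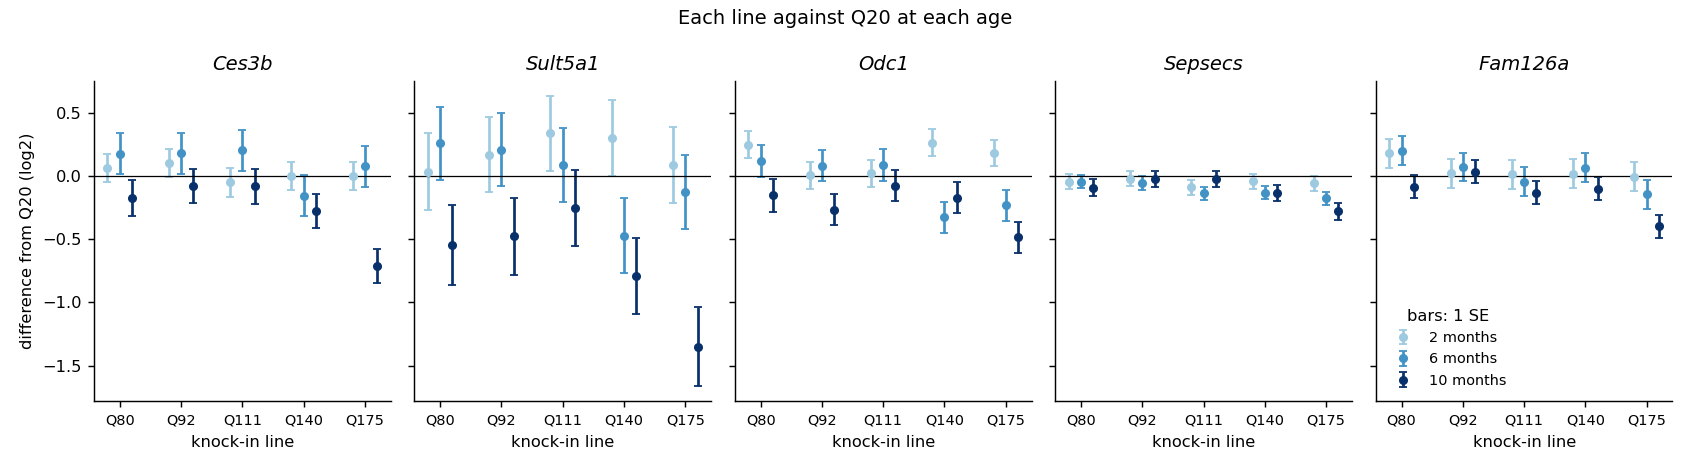
Log2 difference of each longer line from Q20 at 2, 6 and 10 months (light to dark points; bars are 1 SE; n = 8 per group, 7 in Q80 at 10 months), 1 panel per gene on a shared axis. At 10 months Q175 is the lowest point of each panel, from −1.35 in Sult5a1 to −0.28 in Sepsecs, which the choice of the genes at that age favours.

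In every one of the 5 genes Q175 was the line furthest below Q20 at 10 months. The choice of the genes on the 10-month slope favours this, so nothing is read from it. Without the Q175 libraries the 10-month slopes were smaller in size, at −0.19 ± 0.11 for Ces3b, −0.54 ± 0.26 for Sult5a1, −0.12 ± 0.10 for Odc1, −0.09 ± 0.05 for Sepsecs and −0.09 ± 0.07 for Fam126a. Left out next were the 7 libraries at 10 months with over 1 CPM of Acta1, over 1000 CPM of the globin gene Hba-a1 or over 10 CPM of the bile duct keratin gene Krt19. These were F3, F4 and M4 of Q175, F3 and F4 of Q92, and F4 and M3 of Q111, of which Q111 F4 lay near the limit with 10.6 CPM of Krt19. Without them the slopes were −0.33 ± 0.10, −0.75 ± 0.22, −0.22 ± 0.09, −0.15 ± 0.05 and −0.20 ± 0.06 in the same order of genes. Each lay within 1 SE of the value from all libraries.

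**Figure D3:**
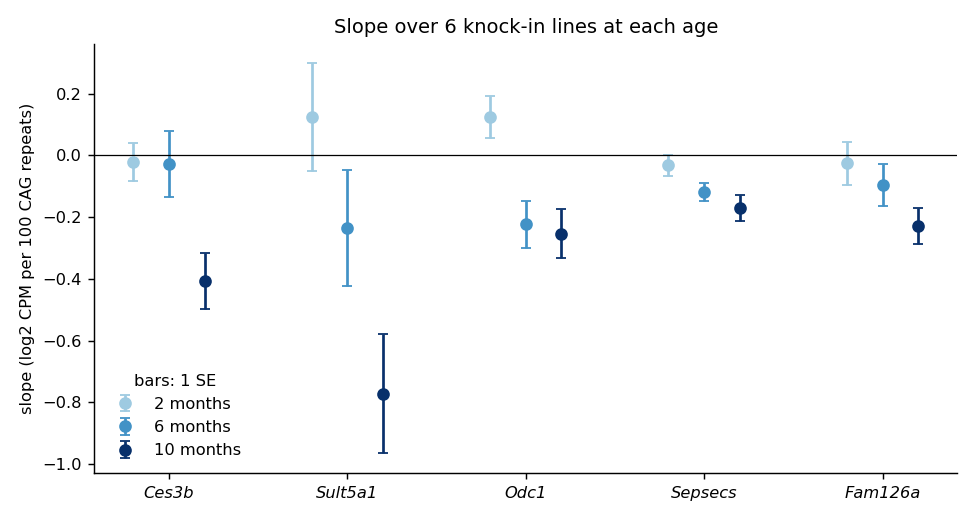
Slope per 100 CAG repeats (log2, with 1 SE) over the 6 knock-in lines for each gene at 2, 6 and 10 months. The 10-month slopes, on which the genes were chosen, lie between −0.77 and −0.17, and the 2-month slopes between −0.03 and 0.12.

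The younger ages give the tests, where line and housing cannot be told apart, as said above. At 2 months the slope was called for 0 of the 5 genes (0.272% of all genes were called), and 0 of them had an unadjusted p under 0.05 or were called by DESeq2 or by limma on log2 FPKM. The slopes were −0.02 ± 0.06 for Ces3b (adjusted p = 0.913), 0.12 ± 0.17 for Sult5a1 (0.778), 0.12 ± 0.07 for Odc1 (0.373), −0.03 ± 0.03 for Sepsecs (0.683) and −0.03 ± 0.07 for Fam126a (0.900).

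At 6 months Sepsecs fell with the repeat, at −0.12 ± 0.03 (adjusted p = 0.0121), and it was 1 of 5 called where 6.27% of all genes were. Line and library set cannot be told apart at this age, as said above. Odc1 had a slope of −0.22 ± 0.08 that missed the threshold (adjusted p = 0.066). The other slopes were −0.23 ± 0.19 for Sult5a1 (0.497), −0.10 ± 0.07 for Fam126a (0.438) and −0.03 ± 0.11 for Ces3b (0.913). The Sepsecs call held with each single Q20 or Q175 library left out. It was lost in either sex alone (adjusted p = 0.127 in females and 0.206 in males), without the Q175 libraries (0.0742), without the Q20 libraries (0.124), with the Q20 females F1, F3 and F4, high in Kupffer cell markers, left out (−0.11 ± 0.03, 0.148) and with limma on log2 FPKM (0.0503), at slopes from −0.14 to −0.10. Odc1 was called by DESeq2 (adjusted p = 0.0441), with the rank of the repeat length (0.0436), without the Q20 libraries (−0.46 ± 0.11, 0.0462) and without the Q20 male M3 (0.048). Besides the rank, Odc1 was thus called in only 2 of 11 alternatives, with adjusted p up to 0.372. With a single library left out it was called in 1 of 16 fits.

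Q175 against Q20 gave the same single call. In that contrast at 2 months 0 of the 5 genes were called (0.310% of all genes), 0 had an unadjusted p under 0.05, and DESeq2 and limma called 0. The differences at 2 months lay between −0.06 ± 0.06, in Sepsecs, and 0.18 ± 0.11, in Odc1. At 6 months Sepsecs was lower in Q175 by −0.18 ± 0.05 (adjusted p = 0.0208), and 1 of 5 was called where 10.9% of all genes were. The others differed by 0.08 ± 0.16 in Ces3b (adjusted p = 0.813), −0.13 ± 0.29 in Sult5a1 (0.826), −0.23 ± 0.12 in Odc1 (0.219) and −0.15 ± 0.11 in Fam126a (0.433). The Sepsecs call was lost without the low-count filter (adjusted p = 0.0529), in females (0.141) or males (0.147) alone, and with those Q20 females left out (0.258). The Q175 and Q20 libraries also enter the slope, so the pair of results is not independent. At 6 months both results also share the limit that line and library set cannot be told apart.

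Q20 was not shown to differ from the wild type in these genes. Between Q20 and the wild type, 0 of 5 were called at 2 months, where 0% of all genes were, and 0 of 5 at 6 months, where 32.2% were. In both comparisons 0 of the 5 had an unadjusted p under 0.05, and DESeq2 and limma called 0. At 2 months the differences lay between −0.12 ± 0.30, in Sult5a1, and 0.08 ± 0.11, in Fam126a. The largest at 6 months, where the library code differs as said above, were −0.53 ± 0.29 in Sult5a1 (adjusted p = 0.161) and −0.27 ± 0.16 in Ces3b (0.205).

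Age was followed in the wild type, where 21 of the 24 libraries have a library code of the same form. Each age has its own run of library numbers. Totals were 45887004 to 57115712 at 6 months, 32882270 to 40556692 at 2 months and 33549790 to 44460401 at 10 months. Age therefore cannot be told apart from library run, nor, at 6 months, from depth. Between 2 and 6 months 0 of 5 genes were called (1.54% of all genes), between 6 and 10 months 0 of 5 (0.169%) and between 2 and 10 months 0 of 5 (1.62%). In each of the 3 comparisons 0 had an unadjusted p under 0.05, and DESeq2 and limma called 0. The furthest from 0 was Sult5a1, with −0.47 ± 0.26 from 6 to 10 months (adjusted p = 0.325) and −0.31 ± 0.26 from 2 to 10 months (0.582). Fam126a differed by 0.18 ± 0.11 from 2 to 10 months (0.435), and Ces3b, Odc1 and Sepsecs by 0.04 ± 0.12, 0.12 ± 0.13 and 0.05 ± 0.05.

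**Figure D4:**
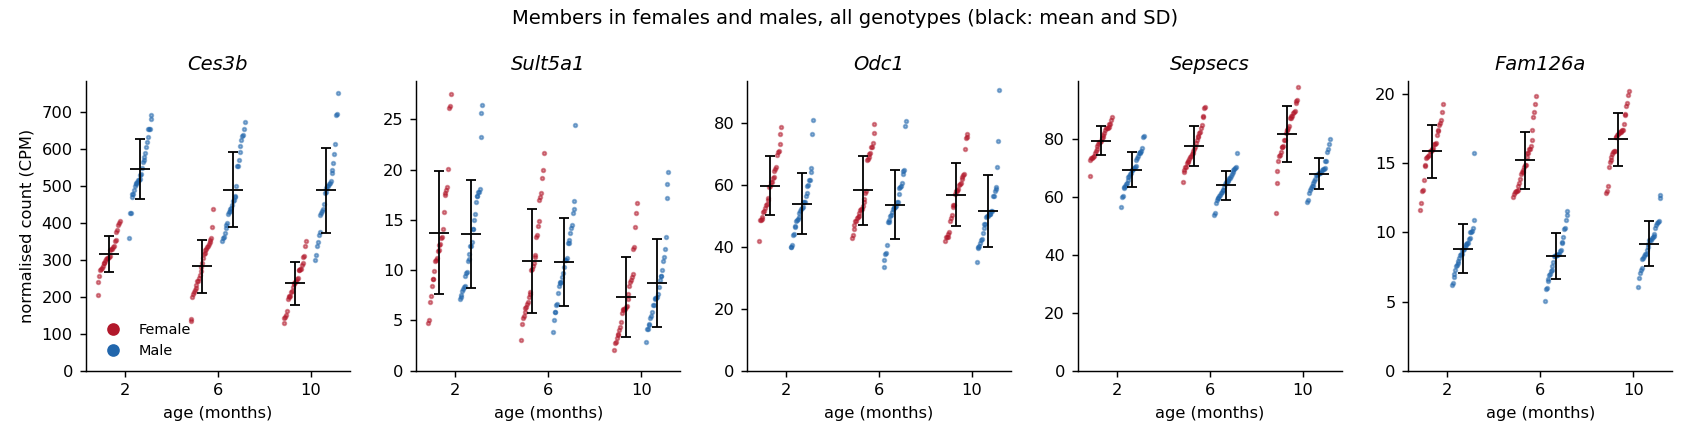
Normalised counts (CPM, linear axis from 0) of the 5 genes in all female (red) and male (blue) libraries of each age, all genotypes together; points are libraries in order of level, and black marks are means with their SD. The sexes of Fam126a do not overlap at 10 months, where females start at 12.82 CPM and males end at 12.73 CPM. How many of all genes have such a gap was not counted.

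Of the 5 genes, Ces3b and Fam126a had the widest differences between the sexes, in opposite directions. Carboxylesterase Ces3b was higher in males at each age. The mean was 316 ± 49.1 CPM (SD, n = 27) in females and 545 ± 81.4 CPM (n = 29) in males at 2 months, 282 ± 72.2 and 489 ± 101 CPM (n = 28 each) at 6 months, and 236 ± 58.8 (n = 28) and 488 ± 115 CPM (n = 27) at 10 months. Females minus males, with genotype in the model, gave −0.78 ± 0.06 (adjusted p = 4.15e-16), −0.81 ± 0.09 (1.96e-11) and −1.05 ± 0.07 (1.26e-17).

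Fam126a was higher in females, by 0.86 ± 0.06 (adjusted p = 1.77e-17), 0.88 ± 0.06 (4.03e-18) and 0.87 ± 0.05 (9.87e-22) at 2, 6 and 10 months. At 6 months all 28 females, at 12.6 to 19.9 CPM, were above all 28 males, at 5.06 to 11.6 CPM. At 10 months all 28 females, at 12.82 to 20.2 CPM, were above all 27 males, at 6.06 to 12.73 CPM. At 2 months the highest library labelled male, at 15.8 CPM, was the Q80 library M5 that goes against its label. The other 28 males of that age had 6.18 to 10.9 CPM and the 27 females 11.6 to 19.3 CPM, with no overlap. In Ces3b that library had 358 CPM, within the female range of 206 to 406 CPM and below the other males at 426 to 691 CPM. How common such gaps between the sexes are among all genes was not counted. Sex was called in 57.6%, 60.9% and 57.2% of all genes at 2, 6 and 10 months.

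Sepsecs was also higher in females, by 0.19 ± 0.03 at 2 months (adjusted p = 4.77e-07), 0.28 ± 0.03 at 6 months (1.36e-12) and 0.27 ± 0.03 at 10 months (3.45e-09), with ranges that overlapped at each age. Odc1 was higher in females by 0.16 ± 0.06 at 2 months (0.0133) and 0.16 ± 0.07 at 10 months (0.0416). At 6 months it differed by 0.12 ± 0.07 (0.098). Without the low-count filter the 10-month call of Odc1 was lost (adjusted p = 0.0833), and limma on log2 FPKM called it at 6 months (0.00048). Sult5a1 differed by −0.01 ± 0.16 at 2 months, −0.01 ± 0.16 at 6 months and −0.23 ± 0.17 at 10 months (adjusted p = 0.968, 0.952 and 0.242).

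Sex was called in 4 of the 5 genes at 2 months, in 3 of them at 6 and in 4 at 10, where 57.6%, 60.9% and 57.2% of all genes were called. The slope itself was not shown to differ between the sexes at the younger ages. The interaction of slope and sex was called for 0 of 5 genes at 2 months (0% of all genes) and for 0 of 5 at 6 months (0.226%), and 0 of 5 had an unadjusted p under 0.05 or were called by DESeq2 or limma at either age. The largest term was −0.56 ± 0.34 in Sult5a1 at 2 months (adjusted p = 0.882).

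Relatives of the 5 genes were followed in 6 lists, of carboxylesterases, sulfotransferases, polyamine metabolism, selenocysteine synthesis, selenoproteins and phosphatidylinositol 4-kinase subunits. In the 10-month slope 0 of the 91 tested relatives were called in either direction, where 0.595% of all genes were. By unadjusted p 12 of the 91 were under 0.05, as were 1649 of all 15629 genes, and DESeq2 called 0. Over all genes the median was −0.01 and 54.0% of the slopes were negative. Unadjusted p under 0.05 was found for 2350 of 15053 genes at 2 months and 3348 of 15498 at 6 months, against which the counts below are read. In the 6-month slope 7 of 91 were called, where 6.27% of all genes were, and DESeq2 called 8.

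Among 16 tested carboxylesterases and their like, besides Ces3b, the median 10-month slope was −0.05 and 11 were negative. Of the 16, 4 had an unadjusted p under 0.05. The smallest p belonged to Ces4a (−0.67 ± 0.23, adjusted p = 0.229), Ces2b (−0.95 ± 0.34, 0.280) and Ces3a (−0.16 ± 0.06, 0.311), all of them esterase genes within 1 Mb of Ces3b. At 6 months 2 rose, Ces1d (0.42 ± 0.10, 0.00886), which encodes a triacylglycerol hydrolase, and Ces1f (0.25 ± 0.06, 0.00699). None fell, and the median was 0.06. DESeq2 called 3 at that age, and 7 of the 16 had an unadjusted p under 0.05. At 2 months 0 of 16 were called, with 1 at an unadjusted p under 0.05 and 0 by DESeq2.

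Of 17 tested genes for sulfotransferases and the synthesis of their sulfate donor, besides Sult5a1, 12 had a negative slope at 10 months, with a median of −0.04. An unadjusted p under 0.05 was found for 1 of the 17. Those with the smallest p were Sult2a8 (−0.21 ± 0.07, adjusted p = 0.241), Sult2a1 (−0.63 ± 0.34, 0.515) and Papss1 (−0.11 ± 0.06, 0.527), which makes the sulfate donor. At 6 months 0 of 17 were called, 0 had an unadjusted p under 0.05 and DESeq2 called 0, with a median of −0.08. At 2 months Sult1e1, the oestrogen sulfotransferase, rose (1.74 ± 0.36, 0.0171), the only gene of 16 to pass, and DESeq2 called 0. An unadjusted p under 0.05 was found for 3 of the 16.

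Polyamine metabolism, with 21 tested genes besides Odc1, had a median 10-month slope of −0.02 and 12 negative slopes. The smallest p belonged to Oaz2 (0.09 ± 0.03, adjusted p = 0.177), an antizyme that marks ornithine decarboxylase for destruction, Smox (0.60 ± 0.22, 0.291), spermine oxidase, and Amd2 (−0.67 ± 0.29, 0.367). At 6 months 2 of 21 fell, the antizyme inhibitor Azin1 (−0.25 ± 0.06, 0.00917) and the arginase Arg2 (−0.68 ± 0.18, 0.0152), and 0 rose. The 6-month median was −0.02. An unadjusted p under 0.05 was found for 4 of the 21 at 6 months and for 4 at 10 months. At 2 months 0 were called, with 2 at an unadjusted p under 0.05 and 0 by DESeq2.

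Selenocysteine synthesis and insertion, with 9 genes besides Sepsecs, moved the other way from Sepsecs at 6 months in 3 genes. Pstk, the kinase that acts just before Sepsecs, rose (0.25 ± 0.05, adjusted p = 0.00284), as did Sephs1 (0.15 ± 0.04, 0.0129) and the seryl-tRNA synthetase Sars (0.16 ± 0.04, 0.00873), and 0 fell. The median of the 9 was 0.09 where that of all genes was 0.00, and 6 of the 9 had an unadjusted p under 0.05. Txnrd1, among these 6, encodes a selenoprotein and not a step of selenocysteine synthesis or insertion. At 10 months the median was 0.01, 0 were called, 0 had an unadjusted p under 0.05, and the smallest p belonged to the SECIS-binding gene Secisbp2 (−0.07 ± 0.04, 0.524), Trnau1ap (0.07 ± 0.05, 0.623) and Txnrd1 (−0.04 ± 0.04, 0.738). At 2 months 0 of 9 were called, with 1 at an unadjusted p under 0.05 and 0 by DESeq2.

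The selenoproteins, which are made with the product of Sepsecs, gave 0 calls among 20 tested genes at 10 months, with a median of −0.01 and 10 negative slopes. An unadjusted p under 0.05 was found for 3 of the 20. Those with the smallest p were the thyroid hormone deiodinase Dio1 (−0.62 ± 0.22, adjusted p = 0.268), Selenoh (0.18 ± 0.06, 0.274) and the plasma glutathione peroxidase Gpx3 (0.32 ± 0.15, 0.432). At 6 and 2 months 0 of 20 and 0 of 19 were called, with 3 and 4 at an unadjusted p under 0.05 and 0 by DESeq2 at both ages. The 9 tested partners and relatives of Fam126a had 0 calls at each age and by DESeq2, with 0, 3 and 0 at an unadjusted p under 0.05 at 2, 6 and 10 months. Their 10-month median was −0.01, and the smallest p belonged to Ttc7 (−0.12 ± 0.06, 0.473), which binds hyccin in the kinase complex, Fam126b (−0.13 ± 0.07, 0.507), its paralogue, and Pi4k2a (−0.07 ± 0.05, 0.638).

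No gene around the 5 was called in the 10-month slope. Of the protein-coding genes within 1 Mb, 57 were tested near Ces3b, 38 near Sult5a1, 8 near Odc1, 10 near Sepsecs and 24 near Fam126a, and 0 of these 137 were called. By unadjusted p 18 were under 0.05, against 1649 of all 15629 genes, and DESeq2 called 0. Besides Ces4a and Ces2b near Ces3b, the smallest p belonged to Afg3l1 (−0.10 ± 0.03, adjusted p = 0.241) and Cpne7 (0.58 ± 0.28, 0.450) near Sult5a1, Pdia6 (−0.23 ± 0.10, 0.365) and Hpcal1 (0.11 ± 0.05, 0.400) near Odc1, Sod3 (0.15 ± 0.06, 0.359) and Sel1l3 (−0.24 ± 0.11, 0.412) near Sepsecs, and Prkag2 (−0.16 ± 0.05, 0.138) and Nos3 (0.26 ± 0.10, 0.290) near Fam126a. The medians of the 5 neighbourhoods lay between −0.07, near Sepsecs, and 0.01, near Odc1. At 6 months 10 of 138 tested neighbours were called, where 6.27% of all genes were: 3 rose and 3 fell near Ces3b, 3 rose near Sult5a1 and 1 rose near Fam126a.

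Between libraries of the same genotype, age and sex, the 5 genes were loosely related. Pearson's r of log2 CPM, after the group means were subtracted, was taken over all libraries as a description (Spearman's rho in second place), and points share the depth and composition of their library. It was highest for Ces3b with Sult5a1 (0.50, 0.49) and with Odc1 (0.43, 0.44) and lowest for Ces3b with Fam126a (−0.11, −0.04). The Sepsecs pairs lay between 0.13 (0.16), with Odc1, and 0.29 (0.25), with Fam126a. Here and below, the Q80 library M5 of 2 months was kept under its male label. It had 358 CPM of Ces3b and 15.8 CPM of Fam126a, against male group means of 574 and 10.05 CPM. Its part in these correlations was not tested.

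Each gene was closest to genes outside the group, among 10889 genes compared in this way. Ces3b was most like Selenbp2 (r = 0.70, rho = 0.72), Foxred1 (0.61, 0.60) and Serpina3k (0.61, 0.58). For Sult5a1 the nearest were the major urinary protein genes Mup2 (0.69, 0.70), Mup17 (0.69, 0.68) and Mup15 (0.68, 0.68), which are near-identical copies whose reads may be shared out between them. Odc1 was most like Hnrnpc (0.74, 0.71), Eif2s1 (0.74, 0.73) and Cct3 (0.71, 0.69). Sepsecs was most like Shmt1 (0.68, 0.68), Trmt2b (0.66, 0.66) and Mut (0.66, 0.64), and Fam126a like Rcan2 (0.54, 0.48), Hsd17b7 (0.49, 0.46) and Abca3 (0.49, 0.43).

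In Ces3b and Odc1 the expected counts of 164 libraries each were not whole (by more than 0.01), so reads that also match other sequences were split, and Ces3a, the gene nearest in family, is a neighbour of Ces3b. In Sult5a1, Sepsecs and Fam126a all were whole within 0.01. Sult5a1 overlaps Gm20388 on the opposite strand, Odc1 holds the small RNA gene Gm22748 and Fam126a the pseudogene Gm6745, and the strand setting of the counting is not given in the sources used here.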

How the data were processed

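PolyA RNA of mouse livers was measured. Per gene and library, the deposited values are expected counts and FPKM, both made by the authors. Base calls came from CASAVA 1.8.2, per the submitters' processing notes. Not given in the sources used here are aligner, quantifier, build and strand setting. Rounding for the count models touched the 14.1% of values that were not exactly whole. Symbols and positions came from GENCODE M21 (GRCm38), which matched 37607 of 39179 IDs, and promoters from RefSeq (GRCm38.p6).

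The 5 genes and the gene lists were chosen with earlier results of these data known. The rounded values were fitted by edgeR 4.0.16 under R 4.3.3 (TMM, filterByExpr, the current form of glmQLFit, F test, Benjamini-Hochberg over all genes, threshold 0.05). The SE is the log2 value divided by the square root of F. Slopes used the 6 knock-in lines with sex; line and sex differences used all 7 genotypes of an age; ages were compared in the 24 wild-type libraries. The labels number the libraries within a sex and do not say that each is a separate animal, so p-values measure the spread between these libraries, which may be technical. CPM used TMM sizes over all libraries, and each age was normalised separately in its test. Totals per library ran from 32025244 to 57151736, and 0 columns were identical.

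As alternatives, limma 3.58.1 was run on log2(FPKM + 0.1), DESeq2 1.42.0 on the counts, and edgeR with RLE factors, without its filter, with a replicate block, in each sex, with the rank of the repeat length, with either end line left out, with single Q20 and Q175 libraries left out, with the form of the library name as a covariate, and without the 7 libraries with other-tissue RNA at 10 months, 3 Q20 females at 6 months, or the Q80 male M5 at 2 months. The earlier form of the quasi-likelihood fit was added after seeing the data. The models were tested on simulated data. The text names the 5 genes, up to 3 genes per list and 2 neighbours per gene by the smallest p in the 10-month slope, the 3 most correlated genes of each (mean log2 CPM at least 1, prior count 0.5), and the 3 genes next to the choice. Relatives called at 2 or 6 months, and genes overlapping the 5, were named after their values were seen.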

Additional observations from a re-analysis of the deposited data

Results flagged for a closer look

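Single libraries were compared with the rest of their group by Dixon's test on log2 CPM, in 105 groups of gene, genotype and age, of which chance alone flags about 1 in 20. The groups hold both sexes, so where the sexes of a gene differ, most of all in Ces3b and Fam126a, the range reflects sex and that rate need not hold. The test found 2, both of them the highest Odc1 library of a Q175 group. Both are females, and Odc1 was called higher in females at these 2 ages. A part of sex in these flags was not tested. At 2 months the female F4 had 76.5 CPM of Odc1, with the next library at 61.8 CPM, and at 10 months the female F2 had 60.7 CPM, with the next at 44.9 CPM.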

How the results depend on the processing

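Under every alternative run, 0 of 5 genes were called in the 2-month slope, in Q175 against Q20 at 2 months, in the slope by sex, between wild-type ages and in Q20 against the wild type. For the 6-month slope, where 1 of 5 was called, 2 were called with DESeq2 and with the rank of the repeat length, and 0 with limma on log2 FPKM, in females alone, in males alone, without the Q175 libraries and with the Q20 females F1, F3 and F4 left out. With single libraries left out the number ran from 1 to 2, with 2 without the Q20 male M3. For Q175 against Q20 at 6 months, 0 of 5 were called without the low-count filter, in either sex alone and with those 3 Q20 females left out.

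In the 10-month slope, whose values chose the genes, a count of calls tests nothing and is given as a description. It was 4 of 5, and it fell to 2 with DESeq2 and with the rank of the repeat length, to 1 with the earlier form of the quasi-likelihood fit, and to 0 with limma on log2 FPKM, in females alone, in males alone, without the Q175 libraries and without the libraries holding muscle, blood or bile duct RNA. With single libraries left out it ran from 0 to 4, with 0 without the Q20 male M3 and without the Q175 female F3, 1 without the Q20 male M4 or the Q175 libraries F1, M1, M3 or M4, and 2 without the Q20 female F2 or the Q175 libraries F2 or M2. All slopes stayed negative in the alternatives run. Calls in all genes moved too, from 93 to 16 with DESeq2, 1 with limma, 424 without the low-count filter, 24 without the Q175 female F3 and 54 without the Q175 male M4. The cause was not tested.

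Replicate numbers run within a sex. The mean correlation of same-numbered libraries of different genotypes was −0.01, 0.09 and 0.00 at 2, 6 and 10 months. For other numbers of the same sex it was 0.004, −0.03 and −0.001. At 6 months 78 of the 168 same-numbered pairs were over 0.1. Same-numbered libraries of some lines share an ending of the library code at that age, so the number can track a library feature there. With the replicate number as a block, 1 of 5 was called in the 10-month slope, and the block left the number of called genes among the 5 as it was in the other comparisons it was run in. No block was run for females against males, where it would remove the contrast.

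The sex calls of Ces3b, Sepsecs and Fam126a held in all alternatives run. Outside the 10-month slope 659 of 675 values kept their side of the threshold.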
